A study of Mus musculus with 3 samples.

Results

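The genes described here encode the machinery that copies DNA in S phase: the proteins that license origins, the replicative helicase, the polymerases and their clamp, the enzymes that supply nucleotides and a few regulators of the step from G1 to S phase. The 53 members were listed by symbol, and all 53 were found among the 24982 gene symbols of the deposited tables. They were measured by RNA-seq in LKS cells, the fraction of mouse bone marrow that lacks lineage markers and carries Kit and Sca1, where hematopoietic stem cells and early progenitors are found. The CD73 KO group is 1 library from recipient mice lacking CD73, the cell-surface enzyme that makes adenosine from extracellular AMP, and the WT group is 2 libraries from wild-type recipients. All were freshly sorted from bone marrow. One label field calls the samples LLP cells, a name it leaves undefined. The labels do not give strain, age, what the recipients received or the origin (donor or host) of the sorted cells, and do not say whether each library is a separate animal. With 1 KO library, the p-values below rest on the spread between the 2 WT libraries, and that spread may be technical.

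In a dividing cell, replication is prepared in G1 and carried out in S phase. The origin recognition complex marks origins, and CDC6 and CDT1 load onto them the ring of MCM2 to MCM7, which stays inactive until CDC45 and the GINS proteins join it to form the moving helicase. Polymerase alpha with primase starts each strand, polymerases epsilon and delta extend them on the sliding clamp PCNA, RPA covers the exposed single strand, and FEN1 and LIG1 join the fragments of the lagging strand. Many of these genes are transcribed together at the end of G1 by the E2F factors. Most stem cells of adult marrow are out of cycle, whereas the multipotent progenitors that make up much of the LKS fraction divide often.

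Short sequence motifs were counted in the promoters of the members and of all protein-coding genes. Of the 53 genes, 45 had a window in the RefSeq table (GRCm38.p6, 250 bases before to 50 after a start site), and Mcm4, Gins1, Gins2, Gins4, Prim2, Pole, Rfc2 and Ccne2 did not. The E2F motif, searched on both strands as TTTCCCGC, TTTCGCGC, TTTGCCGC and TTTGGCGC, was found for 16 of the 45 members (35.6%), against 575 of 17491 protein-coding genes (3.29%). CCAAT was found for 25 of 45 members (55.6%), against 42.3% of protein-coding genes, and the GC box GGGCGG for 35 (77.8%), against 49.2%. TTTGAA, the cell-cycle homology region of genes that peak later in the cycle, was found for 5 members (11.1%), against 18.5%. These are matches of letters and not measured binding. E2F and CCAAT letters shared bases for 1 member, Mcm7, and CCAAT and GC box letters for 1, Gins3, while no E2F match shared a base with TTTGAA or the GC box. The windows below, 30 bases long and read 5′ to 3′ on the gene's strand, are examples from the 16 members with a match. They have the E2F letters in capitals and come from the origin recognition complex, the loaders, the helicase ring, polymerase epsilon and the ligase. The windows of Mcm2 and Pole3 held no such match.

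Orc1 (chr4:108579416-108579445, plus strand): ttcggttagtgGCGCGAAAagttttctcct
Cdc6 (chr11:98908002-98908031, plus strand): gccggtggagaGCGGGAAAtcgcctggggt
Cdt1 (chr8:122568035-122568064, plus strand): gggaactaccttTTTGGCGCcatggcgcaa
Mcm3 (chr1:20820275-20820304, minus strand): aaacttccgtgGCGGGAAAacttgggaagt
Mcm6 (chr1:128359734-128359763, minus strand): gattggacgggTTTGGCGCgaagtagctca
Mcm7 (chr5:138171849-138171878, minus strand): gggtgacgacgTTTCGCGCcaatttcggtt
Pole2 (chr12:69228162-69228191, minus strand): cgtcggcggtgGCGCCAAAtcgcgaacatg
Pole4 (chr6:82652890-82652919, minus strand): ctctacccggcGCGGGAAAggggccgaaat
Lig1 (chr7:13278841-13278870, plus strand): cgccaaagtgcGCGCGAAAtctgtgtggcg

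Mcm5 is shown with the whole 250 bases before its start (chr8:75109259-75109508, plus strand), because its window held 2 overlapping E2F matches, one on each strand, followed by 2 CCAAT matches before the start site. The capitals mark these matches, and the overlapping pair appears as 1 run.

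Mcm5: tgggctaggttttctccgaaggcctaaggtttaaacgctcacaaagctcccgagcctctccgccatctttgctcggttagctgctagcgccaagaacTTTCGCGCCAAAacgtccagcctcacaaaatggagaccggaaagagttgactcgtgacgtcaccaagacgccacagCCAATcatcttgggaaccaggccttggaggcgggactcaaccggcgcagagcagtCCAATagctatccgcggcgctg

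**Figure D1:**
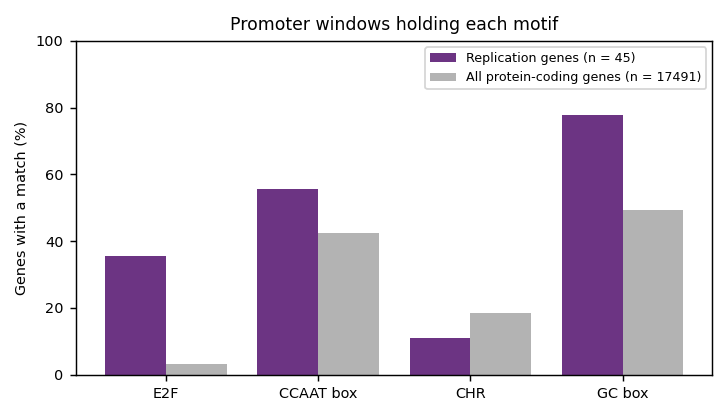
Share of genes (%) whose promoter windows hold each motif on either strand, for 45 replication genes and 17491 protein-coding genes. The E2F letters were found for 35.6% of the replication genes and 3.29% of all protein-coding genes.

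The libraries were shallow. The CD73 KO library held 264704 gene-level counts, and the WT libraries 361638 and 324954. Levels are given as CPM, the count scaled to the library total. One count was worth 3.78 CPM in KO and 2.77 and 3.08 CPM in the WT libraries, and a count of 0 allows up to 3 counts, or 11.3 CPM in KO and 8.30 and 9.23 CPM in WT. Nt5e, the gene of CD73, had 0 counts in all 3 libraries, so it could not check the KO label. Of the sorting markers, Kit had 555 CPM in KO and 517 and 637 CPM in WT, and Ly6a, which encodes Sca1, 136 CPM in KO and 166 and 58.5 CPM in WT. Some of the markers listed for lineage-positive cells had counts, and others were at 0. The 6 neutrophil markers summed to 363 CPM in KO and 741 and 874 CPM in WT, with Ly6g at 0 throughout, and the 5 erythroid markers used to 442 CPM in KO and 420 and 129 CPM in WT, nearly all from Hbb-bt, with Klf1, Hba-a1 and Hbb-bs at 0. The 5 monocyte and macrophage markers summed to 136 CPM in KO and 108 and 397 CPM in WT. Of this, Lyz2 gave 75.6 CPM in KO and 88.5 and 345 CPM in WT. The 5 B cell markers summed to 0 CPM in KO and 13.8 and 55.4 CPM in WT, with Cd79a, Ms4a1 and Ebf1 at 0. The 4 T and NK cell markers found summed to 155 CPM in KO and 191 and 105 CPM in WT. Nearly all of that came from Nkg7, with Cd3e and Cd3g at 0. The 5 markers of stroma and endothelium summed to 128 CPM in KO and 144 and 191 CPM in WT, with Lepr, Cdh5 and Col1a1 at 0. Pecam1 gave all of this sum in WT and 98.2 CPM of it in KO, and Cxcl12 gave the other 30.2 CPM. The 8 stem and progenitor markers summed to 982 CPM in KO and 1701 and 1877 CPM in WT. The part that any of these cell types had in the values below was not tested. Fewer cycling cells cannot be told apart from less RNA of the replication genes per cell.

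The share of the KO library held by replication genes lay inside the WT range. They summed to 7529 CPM in KO and to 8918 and 5912 CPM in WT replicates 1 and 2, so the KO library lay between the WT libraries, 1.02 times their mean. The WT libraries themselves differed 1.51-fold, with a 95% exact binomial interval of 1.42 to 1.60 that covers counting error only. Of the 53 genes, 43 had a count in every library. In KO 6 were at 0 (Gins1, Pole3, Pole4, Rpa3, Ccne1 and Ccne2), against 1 in WT replicate 1 (Pole2) and 5 in WT replicate 2 (Gins3, Prim2, Ccne1, Ccne2 and Ung). Counting members that were at 0 in one library and reached 20 counts in another, there were 3 for KO (Gins1, Pole3 and Pole4), against 7.9% of all tested genes, 1 for WT replicate 1 (Pole2), against 3.46%, and 2 for WT replicate 2 (Gins3 and Prim2), against 3.59%.

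No member passed the test. Among the 47 members with enough counts to be tested, 0 were higher and 0 lower in KO with the adjusted p threshold at 0.05 (quasi-likelihood test of edgeR, adjusted by Benjamini-Hochberg over 7984 genes), where the background was 0.1% of tested genes called higher and 0% called lower. DESeq2 also called 0 members, with an adjusted p for 34 of the 47. Over all 4114 genes with a DESeq2 adjusted p, 11 were called higher and 2 lower. Before adjustment, p was under 0.05 for 1 higher member, Pole2, against 3.53% of all tested genes, and for 3 lower members, Pole3, Pole4 and Gins1, against 6.51% (DESeq2 gave 1 higher and 2 lower, against 3.98% and 9.23%). The smallest adjusted p of a member was 0.11 with edgeR (Pole3) and 0.077 with DESeq2 (Pole2). A positive log2 fold change was found for 19 of 47 members (40.4%), against 43.1% of tested genes. The median log2 fold change was -0.19 over the members and -0.31 over all tested genes, and -0.10 and -0.11 over those with a count in every library. Against WT replicate 2 alone the members' median was 0.41 (all genes -0.13), and against WT replicate 1 alone it was -0.39 (all genes -0.11), so its sign depended on which WT library was used.

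KO lay above both WT libraries for 15 of the 47 tested members (31.9%) and below both for another 15 (31.9%), where the background was 31.1% above and 38.2% below. It lay between or level with them for the other 17 (36.2%, background 30.7%). The WT pair differed mostly in one direction for these genes. WT replicate 1 was above WT replicate 2 for 35 of 47 members (74.5%), against 49.9% of all tested genes. Of the 27 members that reached 50 counts in a library, 10 (37.0%) were at least 2-fold higher in WT replicate 1 than in WT replicate 2 and 3 (11.1%) at least 2-fold lower, on CPM plus 1, against 22.6% and 22% of all genes with as many counts. Taken in either direction, the WT libraries were 2-fold apart for 48.1% of these members and 44.6% of all such genes, and the difference between members and other genes was not tested. The median log2 difference, WT replicate 2 minus WT replicate 1, was -0.78 over these 27 members and -0.06 over the 2831 genes with as many counts.

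**Figure D2:**
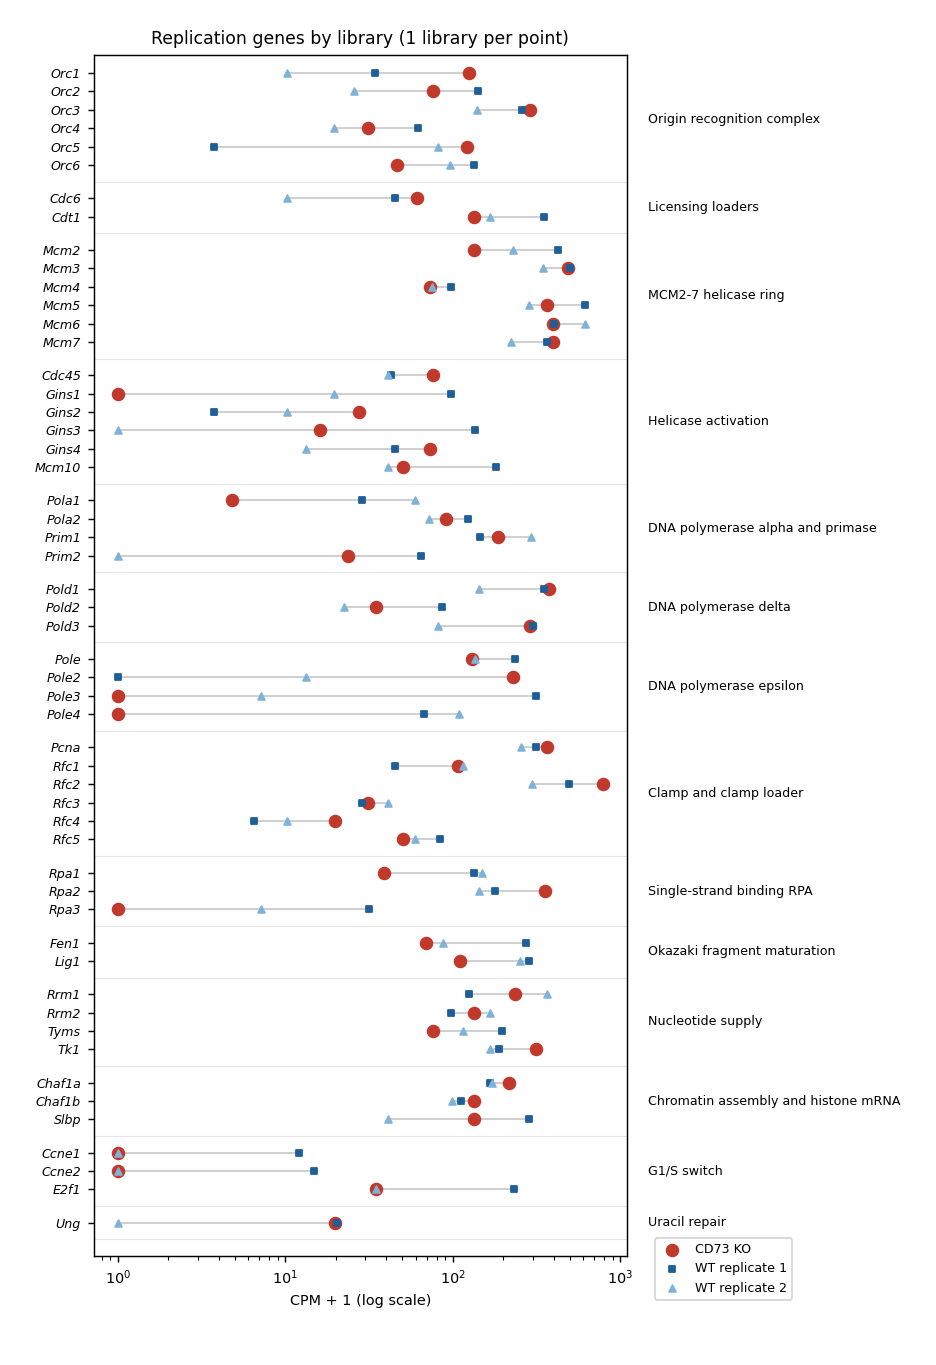
CPM plus 1 (log axis) of each of the 53 members in the CD73 KO library and the 2 WT libraries, 1 point per library, grouped by complex or step. A point at 1 is a count of 0, and a grey line joins the lowest and the highest library. Pole3, Pole2, Gins3, Pole4 and Gins1 spread widest, and Pcna, Mcm3, Mcm4 and Chaf1b lie close together.

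Grouped by complex or step, the summed CPM of KO lay between the WT libraries for 9 of 14 groups, above both for 3 and below both for 2. The 3 groups above were the origin recognition complex, the clamp with its loader, and RPA. The 2 groups below were polymerase alpha with primase and the pair of enzymes that mature Okazaki fragments. In 12 of the 14 groups WT replicate 1 was the higher WT library, the exceptions being polymerase alpha with primase and nucleotide supply. The ratio between the WT libraries was further from 1 than the ratio of KO to the WT mean in 9 of the 13 groups where both could be formed. With 1 KO library no sum was tested.

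**Figure D3:**
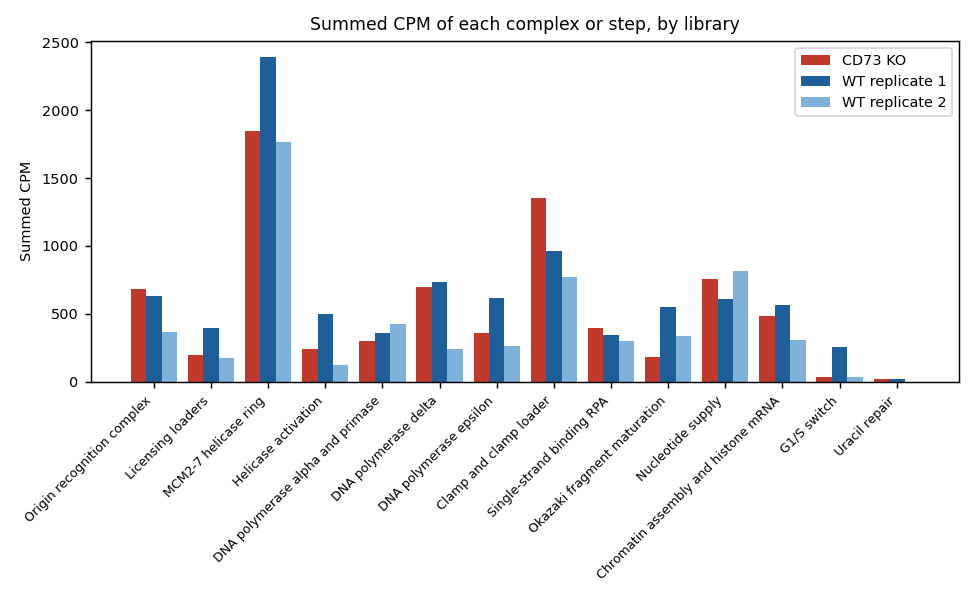
Summed CPM of the members of each complex or step in the CD73 KO library, WT replicate 1 and WT replicate 2. Each bar is 1 library, so there is no error bar. The clamp and its loader stand at 1356 CPM in KO, above 965 and 772 CPM in WT, and Okazaki fragment maturation at 178 CPM in KO, below 553 and 335 CPM in WT.

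The origin recognition complex, which binds origins and recruits the loaders, summed to 684 CPM in KO and to 628 and 366 CPM in WT. Orc3 was its most abundant subunit by counts, with 287 CPM in KO and 257 and 138 CPM in WT. Orc2 had 75.6 CPM in KO and 141 and 24.6 CPM in WT. KO was thus just above the higher WT library for Orc3 and inside the WT range for Orc2. Orc5 had 121 CPM in KO (32 counts) and 2.77 and 80.0 CPM in WT (1 and 26 counts). Orc1, the subunit that is made and destroyed with each cycle in human cells, had 125 CPM in KO (33 counts) and 33.2 and 9.23 CPM in WT (12 and 3 counts), above both. The remaining subunits, Orc4 and Orc6, had 22 counts or fewer and 48 counts or fewer in any library, with KO between the WT libraries for Orc4 and below both for Orc6.

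The loaders lay differently against the WT pair. Cdt1, which brings the MCM ring to the origin and is kept low outside G1, had 132 CPM in KO and 351 and 166 CPM in WT, so KO was below both and the WT libraries were 2.11-fold apart. Cdc6, the ATPase that works with it, had 16 counts in KO and 16 and 3 counts in WT.

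The 6 genes of the helicase ring held the largest sum of any group, with 1847 CPM in KO and 2392 and 1766 CPM in WT. Mcm3 had 484 CPM in KO and 498 and 345 CPM in WT, a log2 fold change of 0.24 (SE 0.65, adjusted p 0.95, edgeR). Mcm5 had 366 CPM in KO and 611 and 283 CPM in WT (log2 fold change -0.25, SE 0.68, adjusted p 0.95). For both, KO lay inside the WT range. Mcm6 had 397 CPM in KO and 398 and 615 CPM in WT (log2 fold change -0.31, SE 0.65, adjusted p 0.93), level with the lower WT library. The deposited FPKM of its top transcript was listed at 0 in KO and gave -4.56 on log2(FPKM + 1), against -0.19 with FPKM over all transcripts. Mcm7 had 397 CPM in KO and 362 and 222 CPM in WT (log2 fold change 0.48, SE 0.75, adjusted p 0.90), just above both. With the deposited FPKM of its top transcript the sign turned, to -1.27 on log2(FPKM + 1), against 0.61 with FPKM over all transcripts. In KO, 142 FPKM of Mcm7 were listed under another transcript, which had 0 FPKM in both WT libraries. The exons of Mcm7 overlap Cops6 and Ap4m1 on the opposite strand by 64 and 321 bases. Without a stated use of strand, the reads of overlapping genes cannot be separated. Mcm4 had the fewest counts of the ring, with 71.8 CPM in KO and 96.8 and 73.9 CPM in WT (log2 fold change -0.21, SE 1.45, adjusted p 0.98).

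Mcm2 was the ring gene furthest below both WT libraries, with 132 CPM in KO (35 counts) and 426 and 228 CPM in WT (154 and 74 counts). Its log2 fold change was -1.27 (SE 0.90, adjusted p 0.72, edgeR), and the WT libraries were 1.87-fold apart. MCM2 also carries histones at the fork. Per length of transcript, on the FPKM scale summed over a gene's transcripts, the ring genes other than Mcm4 had levels of 39.8 to 177 FPKM in KO, 118 to 180 FPKM in WT replicate 1 and 68.1 to 202 FPKM in WT replicate 2, while Mcm4 had 20.3 FPKM in KO and 27.1 and 20.7 FPKM in WT. The products work as a ring with 1 copy of each.

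The proteins that turn the loaded ring into a moving helicase were detected unevenly. They summed to 238 CPM in KO and 501 and 120 CPM in WT, a WT difference of 4.17-fold. Mcm10, needed to activate the helicase, had 49.1 CPM in KO and 180 and 40.0 CPM in WT. Gins1 had 0 counts in KO and 35 and 6 counts in WT. With KO set to a floor of 3 counts it was at least 5.08-fold lower than the WT mean, 8.54-fold lower than WT replicate 1 and 1.63-fold lower than WT replicate 2 (unadjusted p 0.042, adjusted p 0.48, edgeR). Gins3 had 4 counts in KO and 49 and 0 in WT, so the WT libraries lay on either side of KO. KO was above both WT libraries for Cdc45, with 20 counts against 15 and 13, for Gins4, with 19 against 16 and 4, and for Gins2, with 7 against 1 and 3. Gins2 had too few counts to be tested. Its exons overlap Gse1 on the opposite strand by 2758 bases, and Gse1 had 27 counts in KO and 156 and 119 in WT. The exons of Cdc45 overlap Ufd1 on the opposite strand by 209 bases, and Ufd1 had 31 counts in KO and 5 and 11 in WT.

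Polymerase alpha with primase, which lays down the primers, was one of the 2 groups where KO was below both WT libraries, with 302 CPM in KO and 357 and 422 CPM in WT. Its most abundant gene, the primase subunit Prim1, did not show this pattern, with 185 CPM in KO and 144 and 292 CPM in WT. Pola1, the catalytic subunit, had 1 count in KO and 10 and 19 counts in WT. Pola2 had 24 counts in KO and 44 and 23 in WT, and Prim2 had 6 in KO and 23 and 0 in WT, both inside the WT range on CPM.

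Polymerase delta, the main polymerase of the lagging strand, summed to 695 CPM in KO and 733 and 243 CPM in WT, and its larger genes in KO lay near WT replicate 1. Pold1, its catalytic subunit, had 374 CPM in KO and 348 and 142 CPM in WT. Pold3 had 287 CPM in KO and 299 and 80.0 CPM in WT. WT replicate 1 was 2.46 times WT replicate 2 for Pold1 and 3.73 times for Pold3. Pold2 had 9 counts in KO and 31 and 7 in WT.

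Polymerase epsilon, the main polymerase of the leading strand, held the widest values of all members. Pole, the catalytic subunit, was present in every library, with 128 CPM in KO and 235 and 135 CPM in WT. Pole2, the second subunit (chromosome 12, 69201773 to 69228205, minus strand, GRCm38), had 227 CPM in KO (60 counts) and 0 and 12.3 CPM in WT (0 and 4 counts). KO was 18.4 times WT replicate 2, and at least 22.0-fold higher than the WT mean with WT replicate 1 set to a floor of 3 counts. Its exons overlap Gm49384 on the same strand by 245 bases. The log2 fold change of Pole2 was 5.19 (SE 1.54, adjusted p 0.12, edgeR). The DESeq2 log2 fold change was 5.28, and over the alternative tests the adjusted p ranged from 0.077 (DESeq2) to 0.73 (limma on log2(FPKM + 10)). Its promoter window holds the E2F letters shown above, just after the start site.

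Pole3, one of the histone-fold subunits of polymerase epsilon (chromosome 4), had 0 counts in KO and 113 and 2 counts in WT. It was thus at 312 CPM in WT replicate 1 and 6.15 CPM in WT replicate 2. With KO set to a floor of 3 counts, it was at least 14.1-fold lower than the WT mean (adjusted p 0.11, edgeR), but that mean rests on WT replicate 1, and against WT replicate 2 both values were at or under the floor and gave no fold. Pole4, the partner histone-fold subunit, had 0 counts in KO and 24 and 35 counts in WT, at least 7.68-fold lower against the same floor (unadjusted p 0.011, adjusted p 0.28, edgeR). For Pole4 both WT libraries were well above the floor of KO. The 4 subunits summed to 355 CPM in KO and 614 and 262 CPM in WT, so the sum of the complex lay inside the WT range. As log2 of KO over the WT mean this sum was -0.30, and -1.18 with FPKM. The FPKM value rests largely on Pole3, which had 524 FPKM in WT replicate 1, 10.4 FPKM in WT replicate 2 and 0 in KO.

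**Figure D4:**
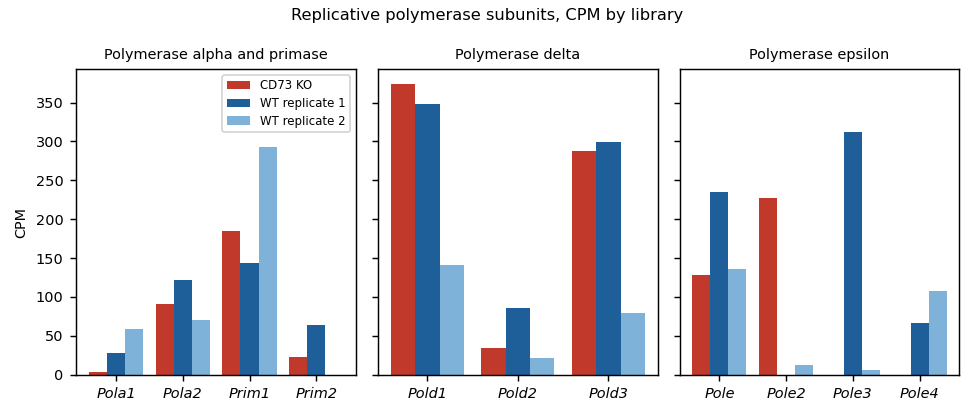
CPM of each subunit of the 3 replicative polymerases in the CD73 KO library, WT replicate 1 and WT replicate 2, 1 bar per library. Missing bars are counts of 0. Pole2 stands at 227 CPM in KO and at 0 and 12.3 CPM in WT, Pole3 at 0 CPM in KO and at 312 and 6.15 CPM in WT, and Pold1 and Pold3 are alike in KO and WT replicate 1.

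The sliding clamp and its loader were above both WT libraries in KO as a group, with 1356 CPM in KO and 965 and 772 CPM in WT, 1.56 times the WT mean. Pcna, the clamp that tethers the polymerases, had 366 CPM in KO and 312 and 255 CPM in WT. Its log2 fold change was 0.41 (SE 0.77, adjusted p 0.92, edgeR), and the WT libraries were 1.22-fold apart. Pcna pseudogenes are annotated, so its counts may include or lack some of their reads.

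Rfc2, a subunit of the loader that opens the clamp (chromosome 5, 134582690 to 134598328, plus strand), gave most of the group's difference. It had 786 CPM in KO (208 counts) and 492 and 295 CPM in WT (178 and 96 counts), with a log2 fold change of 1.03 (SE 0.59, adjusted p 0.58, edgeR). Its exons overlap Lat2 on the opposite strand by 952 bases, and Lat2 itself had 12 counts in KO and 92 and 29 in WT. On the FPKM scale, Rfc2 and Pcna were among the 3 highest members per length in every library. Rfc2 was at 525 FPKM in KO and 326 and 196 FPKM in WT, and Pcna at 295 FPKM in KO and 249 and 204 FPKM in WT. The other loader subunits were far lower. Rfc1 had 28 counts in KO and 16 and 37 in WT, and Rfc3, Rfc4 and Rfc5 had 30 counts or fewer in every library, with Rfc4 not tested.

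RPA, the trimer that coats single-stranded DNA, had subunits on opposite sides. Rpa2, which is phosphorylated when forks stall, had 355 CPM in KO (94 counts) and 177 and 142 CPM in WT (64 and 46 counts), with a log2 fold change of 1.19 (SE 0.88, adjusted p 0.74, edgeR). Rpa1, the large subunit that binds the DNA, had 10 counts in KO and 48 and 48 in WT, which is 37.8 CPM in KO and 133 and 148 CPM in WT. The WT libraries were close together for both genes, 1.25-fold apart for Rpa2 and 1.11-fold for Rpa1. Rpa3 had 0 counts in KO and 11 and 2 in WT and was not tested.

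The pair that finishes Okazaki fragments was below both WT libraries in KO, with a sum of 178 CPM in KO and 553 and 335 CPM in WT, 0.40 times the WT mean. Lig1, the ligase that seals the nicks, had 110 CPM in KO (29 counts) and 282 and 249 CPM in WT (102 and 81 counts), with WT libraries 1.13-fold apart. Fen1, the flap nuclease, had 68.0 CPM in KO (18 counts) and 271 and 86.2 CPM in WT (98 and 28 counts), with a log2 fold change of -1.36 (SE 1.19, adjusted p 0.79, edgeR). For Fen1 the WT libraries were 3.15-fold apart, and against WT replicate 2 alone its log2 fold change was -0.29. Its exons overlap Gm10143 and Tmem258 on the opposite strand by 1909 and 130 bases.

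A rule of size without a test asked for 50 counts in a library and a KO value at least 2-fold from each WT library on CPM plus 1. By it, 2 of 27 members were higher in KO, Pole2 and Rpa2, and 2 were lower, Pole3 and Lig1. These shares, 7.41% each, compare with 9.25% of all such genes higher and 17.9% lower. Pole3 meets it against WT replicate 2 by a value of 0 against 2 counts, under the floor of 3, and on CPM plus 10 Lig1 was the one lower member left and Pole2 the one higher. Against WT replicate 1 alone 9 of 26 members were lower and 2 higher (27.6% and 17.8% of all genes), and against WT replicate 2 alone 1 of 19 was lower and 6 higher (28.9% and 21.1%). With 20 counts in a library as the minimum, 6 of 43 were lower and 3 higher (22.6% and 12% of all genes).

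**Figure D5:**
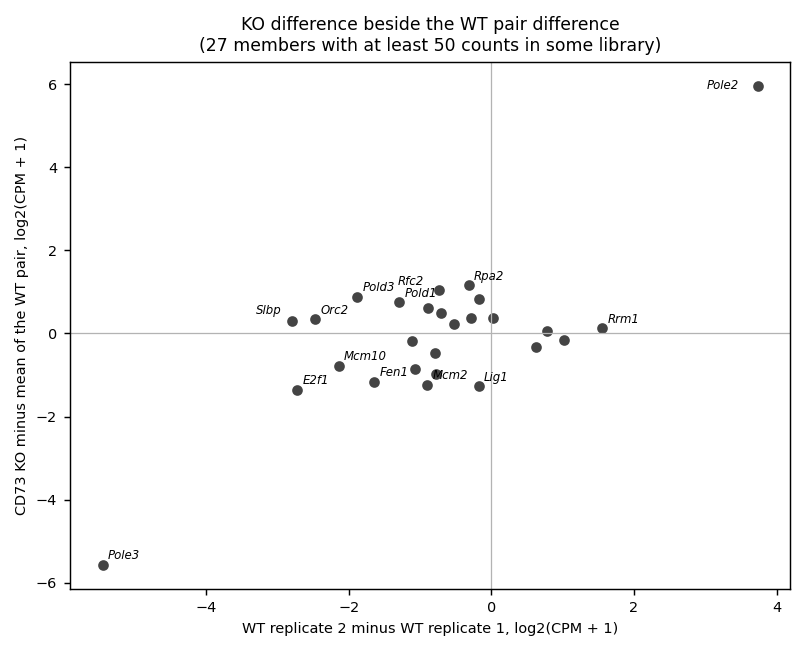
Difference between CD73 KO and the mean of the WT pair against the difference between the WT libraries, both as log2(CPM + 1), for the 27 members that reached 50 counts in a library. Names mark members at least 1 from 0 on the vertical axis or at least 1.2 from 0 on the horizontal axis. Rpa2, Rfc2, Lig1 and Mcm2 stand away from 0 on the vertical axis with a WT difference under 1, and Pole2 and Pole3 are far from 0 on both axes.

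Nucleotide supply summed to 756 CPM in KO, inside the WT range of 606 and 812 CPM. As log2 of KO over the WT mean this was 0.09, against 1.25 with the FPKM of each gene's top transcript and 0.35 with FPKM over all transcripts. Rrm1, the large subunit of the ribonucleotide reductase that makes deoxynucleotides, had 234 CPM in KO and 124 and 366 CPM in WT. Rrm2, its S-phase subunit, had 132 CPM in KO and 96.8 and 166 CPM in WT. Both lay between the WT libraries, and in both WT replicate 2 was the higher one, unlike most members. Tk1, the thymidine kinase of S phase, had 314 CPM in KO and 188 and 166 CPM in WT, above both. Tyms, which makes thymidylate, had 75.6 CPM in KO and 196 and 114 CPM in WT, below both. The annotated pseudogene Tyms-ps had 1 count in KO and 7 and 12 in WT.

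The genes that package new DNA summed to 480 CPM in KO and 561 and 308 CPM in WT. Chaf1a, the large subunit of the CAF-1 histone chaperone, had 215 CPM in KO and 166 and 169 CPM in WT. Its exons overlap Ubxn6 on the opposite strand by 4648 bases, and Ubxn6 itself had 50 counts in KO and 5 and 12 in WT. Whether reads of Ubxn6 add to the Chaf1a counts was not tested. Chaf1b had 132 CPM in KO and 111 and 98.5 CPM in WT. KO was slightly above both WT libraries for each subunit. Slbp, which binds the stem-loop of histone mRNAs, was an exception in the WT pair, with 132 CPM in KO and 285 and 40.0 CPM in WT, 7.12-fold apart.

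The members grouped as regulators of the G1 to S step were E2f1, Ccne1 and Ccne2, and E2f1 held most of their counts. Cdk2, Cdk4 and Cdk6 are given with the further lists below. E2f1, the transcription factor that drives many of the other members, had 34.0 CPM in KO (9 counts) and 230 and 33.8 CPM in WT (83 and 11 counts). KO and WT replicate 2 were level, and the log2 fold change of -1.91 (SE 1.44, adjusted p 0.74, edgeR) rested on WT replicate 1. Against WT replicate 2 alone it was 0.06. The cyclin genes Ccne1 and Ccne2, whose products switch on CDK2, had 0 counts in KO and 4 and 5 counts in WT replicate 1 and 0 in WT replicate 2. Ung, which removes uracil from new DNA, had 5 counts in KO and 7 and 0 in WT. Neither the cyclins nor Ung could be tested at this depth.

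Members with and without an E2F match in the promoter are set side by side here with no test of their difference. Of the 16 tested members with a match, 8 had a positive log2 fold change. Their median was 0.06, within a range of -7.78 to 5.19. Of the 25 with a window and no match, 9 were positive, with a median of -0.19 and a range of -8.66 to 1.59. WT replicate 1 was above WT replicate 2 for 11 of the 16 and 18 of the 25.

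In 6 further lists of the replication pathway, 0 of 94 tested genes passed (edgeR, adjusted p of 0.05, background as above). The log2 fold change was positive for 40 and negative for 54, against 43.1% positive over all tested genes. Before adjustment, 5 higher (Cdk2, Clspn, Dna2, Asf1a and Cdk1) and 4 lower genes (Ctps, Rbl2, Birc5 and Ube2c) had p under 0.05 (edgeR). Over all tested genes, 3.53% were higher and 6.51% lower by the same measure. DESeq2 called 0 of these 94 genes, of which 69 had an adjusted p. It put 6 higher and 6 lower under an unadjusted 0.05, against 3.98% and 9.23% of all tested genes. Of 13 genes of origin firing control 4 were positive and 9 negative, with a median log2 fold change of -0.73. Cdk2, the kinase that starts S phase, had 404 CPM in KO and 119 and 89.2 CPM in WT (unadjusted p 0.029, adjusted p 0.42, edgeR). Topbp1, a scaffold of helicase activation, had 344 CPM in KO and 252 and 218 CPM in WT. Both were above both WT libraries. On the other side, Cdc7, the kinase that fires loaded origins, had 102 CPM in KO and 194 and 258 CPM in WT, and Recql4, a helicase needed for firing, had 1 count in KO and 29 and 27 in WT (adjusted p 0.80 and 0.53, edgeR).

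Among 20 tested genes of fork protection and the accessory replisome, 9 were positive and 11 negative (median -0.21). Clspn, a mediator of the replication checkpoint, had 276 CPM in KO and 69.1 and 55.4 CPM in WT, and Dna2, a nuclease of the lagging strand, 38 counts in KO and 3 and 5 in WT (adjusted p 0.48 and 0.42, edgeR). Top2a, the topoisomerase of S and G2 phase, had 654 CPM in KO and 523 and 471 CPM in WT. In contrast, Timeless, a part of the fork protection complex, had 193 CPM in KO and 218 and 471 CPM in WT. Of 18 further genes of nucleotide supply 7 were positive and 11 negative (median -0.02). Ctps, the CTP synthase, had 0 counts in KO and 55 and 23 in WT (adjusted p 0.22, edgeR), and Shmt2, which feeds the folate cycle, had 450 CPM in KO and 243 and 259 CPM in WT.

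Of 12 genes of replication-coupled chromatin 4 were positive and 8 negative (median -0.20). Dnmt1, the maintenance DNA methyltransferase, had 484 CPM in KO and 614 and 886 CPM in WT, below both, and Ssrp1, a subunit of the FACT histone chaperone, 665 CPM in KO and 329 and 277 CPM in WT, above both. Of 11 tested genes of E2F and Rb control 4 were positive and 7 negative (median -0.35). Rbl2, the pocket protein p130 of resting cells, had 1 count in KO and 98 and 34 counts in WT (adjusted p 0.16, edgeR). Cdk6, a kinase of G1, had 884 CPM in KO and 727 and 523 CPM in WT, and Cdk4 442 CPM in KO and 348 and 554 CPM in WT. In the list of G2 and mitosis 12 of 20 were positive and 8 negative (median 0.39). Mki67, the proliferation marker, had 1538 CPM in KO and 1573 and 1256 CPM in WT, inside the WT range, and Cdk1, the mitotic kinase, 491 CPM in KO and 205 and 58.5 CPM in WT (adjusted p 0.35, edgeR). On the other side, Birc5 had 18.9 CPM in KO and 141 and 197 CPM in WT (adjusted p 0.44, edgeR).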

How the data were processed

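LKS libraries were made with NEB kits from RNeasy micro RNA, per the labels' protocols. The authors deposited whole-number read counts and FPKM values for each RefSeq transcript, per the values in the files; the submitters' processing notes name STAR and mm10, and how reads were counted, how FPKM was computed and whether strand was used is not given. Each table held 42574 rows for 24982 symbols. A gene's count was its highest row, since transcripts repeat shared reads, and CPM used the library total of these counts (264704 in KO, 361638 and 324954 in WT). In 851 and 787 genes with 1 transcript and at least 30 counts, the ratio of FPKM to count was a constant between libraries. Counting intervals and floors cover counting error only.

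The test was edgeR's (4.0.16, under R 4.3.3; filterByExpr, TMM, quasi-likelihood, Benjamini-Hochberg over all tested genes). With 1 residual degree of freedom the spread of the WT pair had to stand for that of KO too, and the common biological coefficient of variation was 0.81. SE is the absolute log2 fold change over the square root of F, not given where KO was at 0. The procedure was tested on simulated data. Alternatives used DESeq2 1.42.0 and limma 3.58.1, other scalings, filters and FPKM. Coordinates are GRCm38 (mm10) from RefSeq, with overlaps from GENCODE M21. The members and lists were chosen with earlier results of these data known. Values in every library are given for members that reached 50 counts in a library, meeting the size rule, or at 0 in one library and at least 20 in another; statistics for the 3 highest and 3 lowest log2 fold changes among members with at least 50 counts, Pcna and Mcm2 to Mcm7. Other members, and genes of further lists beyond the most abundant, were named after their values were seen. One planned marker gene is not reported here.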

Additional observations from a re-analysis of the deposited data

How the results depend on the processing

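No member was called under any of the 6 alternative tests (RLE factors, library totals, DESeq2, no filter, at least 50 counts in some library, mean over transcript rows). DESeq2 gave an adjusted p for 34 of the 47 members, and 27 members reached 50 counts. Leaving out a WT library leaves no residual degrees of freedom and gave no count of calls. No paired analysis was possible because the KO library carries no replicate number. Over all genes, the 8 higher calls became 4 with no filter, 15 among genes that reached 50 counts, and 1 with the mean over transcript rows; the 0 lower calls became 2 with DESeq2 and 1 with at least 50 counts. The members' median log2 fold change ranged from -0.39 to 0.41 with 1 WT library left out. By the size rule, the 2 higher members became 1 with the mean over transcript rows and 1 with CPM plus 10, and ranged from 2 to 6 with 1 WT library left out; the 2 lower members became 1 with CPM plus 10 and 6 with at least 20 counts, and ranged from 1 to 9. As log2 of KO over the WT mean, summed FPKM of each gene's top transcript gave -0.50 for the MCM ring (CPM -0.17), -1.18 for polymerase epsilon (CPM -0.30) and 1.25 for nucleotide supply (CPM 0.09). With FPKM summed over transcript rows, chosen after the data were seen, they were -0.06, -1.18 and 0.35. The polymerase epsilon value rests largely on Pole3 in WT replicate 1 (524 FPKM). Mcm7 turned to -1.27 (FPKM plus 1) and -1.11 (FPKM plus 10) for its top transcript, against 0.61 over all its transcripts. Mcm6 kept its sign but moved to -4.56 (FPKM plus 1) and -1.73 (FPKM plus 10), against -0.19 over all its transcripts. The G1/S group ranged from -2.90 to 0.0063 with 1 WT library left out. Ung, at 0 in WT replicate 2, gave 0.96, with 0.99 (TMM), 1.18 (mean over rows), 0.31 and 1.10 (FPKM) and -0.0353 without WT replicate 2. The cause of the other shifts was not tested. Depth limits single genes most: 3 counts in KO are 11.3 CPM.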
